A study of Macaca fascicularis with 23 samples.

Results

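Across 3 culture media of cynomolgus monkey (Cm) pluripotent stem cells (PSCs), 7 genes of the fibroblast growth factor (FGF) to ERK axis were followed: ETV1, ETV5, IL17RD, RGS16, DUSP7, FGFR3 and FGF5. They were picked by name, with their levels in these libraries already known, and are 7 of the 8415 genes analysed here. Of the 2776 genes above the expression threshold, 6 were members and FGF5 was below it. The threshold was a log2(RPM + 1) value above 4 in at least 1 PSC library, where RPM is the number of reads of a gene scaled by the library total. ETV5 is listed in the table by its gene ID (101865178) under a locus name, and its symbol came from the RefSeq gene table. The differences of these genes between media are therefore given as a description, without a test.

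FGF ligands bind receptor tyrosine kinases such as FGFR3, and the signal passes through RAS, RAF and MEK to the kinases ERK1 and ERK2. Among the first genes to respond are the ETS factors of the PEA3 family, which include ETV1 and ETV5, and a set of brakes that act back on the same chain. IL17RD (also called SEF) is a membrane protein that restrains FGF-ERK signalling, DUSP7 is a phosphatase that removes phosphate from ERK, and RGS16 shortens signalling by G protein-coupled receptors. FGF5 is a ligand known as a marker of the early post-implantation epiblast. Primed PSCs of primates are usually kept in bFGF, whereas media for a naïve state often block part of this chain.

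Each of 7 lines gave 1 library in each medium, 21 in all. CMK6, TRSK and CMK9 are ESC lines, CMK6 and TRSK male and CMK9 female. The 4 iPSC lines share a donor, a female foetus whose liver cells gave iPS-L3 and iPS-L6 and whose stomach cells gave iPS-S6 and iPS-S12. Primed PSCs were grown in bFGF/KSR with 4 ng/ml bFGF. Naïve-like PSCs carried PiggyBac vectors for Dox-inducible hKLF2 and hNANOG, an EOS-GFP/puroR reporter with rtTA, and were grown in K5cLD, a medium with LIF, Dox and 5 chemicals but no bFGF. The chemicals were CHIR99021, kenpaullone, forskolin, the PKC inhibitor Gö6983 and SB590885, an inhibitor of BRAF. Differentiated cells were naïve-like cells, with the same vectors, moved to K5c. K5c is K5cLD without LIF and Dox, so the RAF inhibitor was present in both media. A DsRed vector was also used in ESC lines but not in the iPSC lines. Whether the ESC libraries held it is not stated in the paper. All PSCs grew feeder-free on laminin-511, and the reprogramming vector of some iPSC lines had not been lost. The 2 other libraries were cultured somatic liver and stomach cells of the foetus, 1 each, grown with HGF and EGF.

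The libraries held 861000 to 7986000 reads, with a median of 3004000, and 3 reads corresponded to 0.376 to 3.49 RPM. The genes analysed summed to between 24.8% and 27.5% of each library. The library numbers in the labels run by medium, so a preparation batch, if there was one, and the medium cannot be told apart. SOX2 and LIN28A were at or above 159.6 RPM in every PSC library and at or below 0.649 RPM in the somatic ones. LIN28B was at or above 99.4 RPM in every PSC library. From primed to differentiated cells the medians of CRIPTO and HESX1 went from 33.2 and 13.2 to 0.999 and 0 RPM. Those of DPPA4 and L1TD1 went from 119.7 and 112.9 to 29.3 and 27.0 RPM, and that of DPPA2 from 3.49 to 15.2 RPM. KLF17 had no read in any PSC library, and DPPA5 had a median of 0 RPM in each medium. POU5F1, which encodes OCT3/4, had a median of 238 RPM in primed, 289 RPM in naïve-like and 20.2 RPM in differentiated cells, and in primed cells its lowest value (32.8 RPM) was in iPS-S12. The liver library had no read for ALB, AFP, APOA2, TF or AHSG, all 5 hepatocyte markers analysed, while COL1A2, a collagen gene of fibroblasts, was at 4832 RPM. Of the other fibroblast and stroma markers analysed, PDGFRA and PRRX1 were at 21.1 and 13.5 RPM in this library. TWIST1 went the other way, at 0.587 RPM against a primed median of 7.08 RPM. The stomach library held TFF1, TFF2 and CLDN18, genes of the gastric epithelium, at 89.5, 166 and 188 RPM, together with COL1A2 at 4506 RPM. PGC, also listed for this epithelium, had no read in it. PDGFRA, PRRX1 and TWIST1 were at 9.73, 37.9 and 5.84 RPM in stomach cells.

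ETV1 was highest in naïve-like cells and low in differentiated cells. In primed cells its level was 39.1 RPM in CMK6, 45.6 in TRSK, 39.1 in CMK9, 27.6 in iPS-L3, 51.1 in iPS-L6, 49.9 in iPS-S6 and 22.6 in iPS-S12. In naïve-like cells, in the same order of lines, it was 76.9, 70.5, 43.2, 61.2, 57.6, 94.3 and 25.8 RPM. In differentiated cells it was 7.18, 4.74, 4.43, 9.56, 8.32, 11.7 and 9.65 RPM. Every line was higher in naïve-like than in primed cells, but the ranges of these groups overlapped. The highest differentiated library lay below the lowest library of either other medium.

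The within-line difference of ETV1 was 0.58 ± 0.42 on the log2(RPM + 1) scale (SD, n = 7 lines) for naïve-like minus primed. It was -2.77 ± 0.73 for differentiated minus naïve-like, a 6.81-fold lower level, and -2.18 ± 0.70 for differentiated minus primed, a 4.54-fold lower level. The smallest loss from naïve-like to differentiated cells was -1.33 in iPS-S12 and the largest was -3.64 in TRSK. Since log2(RPM + 1) shrinks changes of low values, these folds understate the ratio of RPM.

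ETV1 was the only member whose libraries did not overlap between media. Of the 2776 expressed genes, 2.92% had all 7 differentiated libraries below all 7 naïve-like ones and 1.62% had them below all 7 primed ones. Between naïve-like and primed cells, no member separated, against 2.41% of genes with all naïve-like libraries higher and 1.66% with all lower. ETV1 was also the only member higher in naïve-like than in primed cells in all 7 lines, as were 9.73% of genes. Because the members were chosen on these values, the shares are given for scale only.

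**Figure D1:**
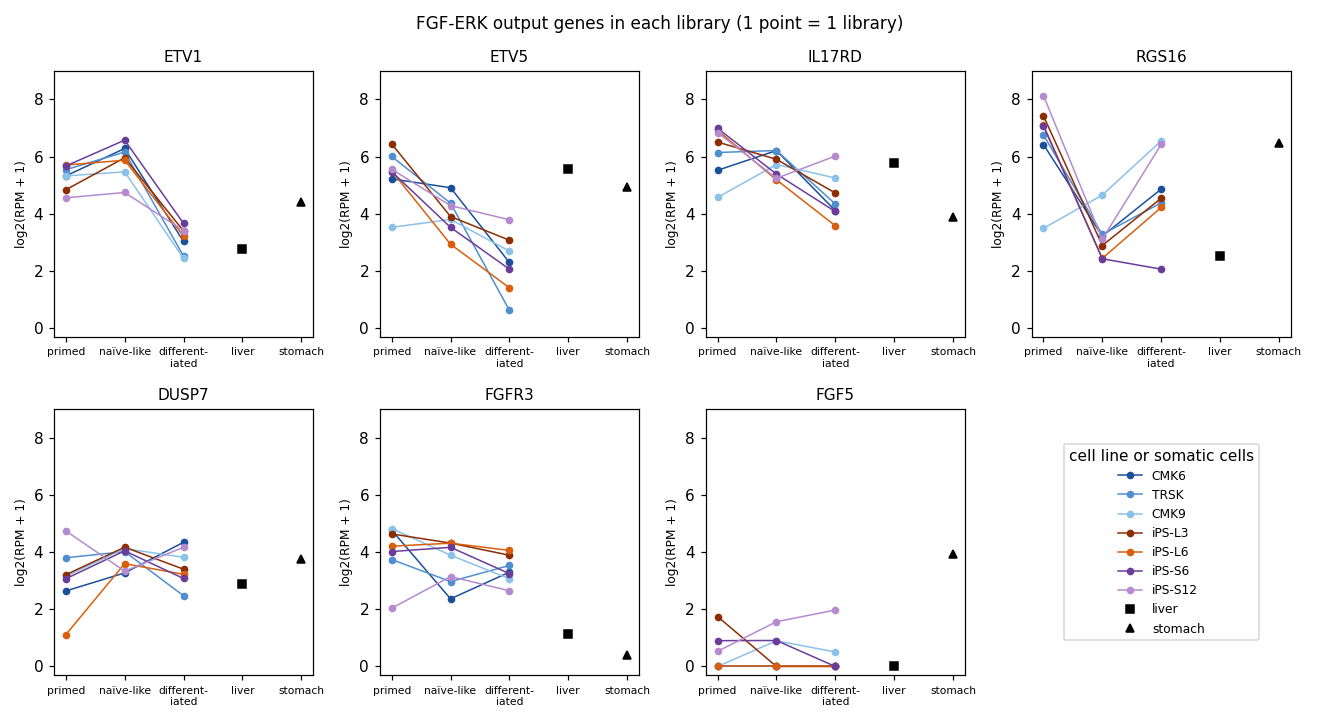
Level of each of the 7 genes as log2(RPM + 1), vertical axis, in the 3 PSC media and the 2 somatic libraries, horizontal axis. Each point is 1 library and lines join the libraries of 1 cell line; the drop of ETV1 in differentiated cells, the stepwise order of ETV5 and the low naïve-like level of RGS16 can be read off, with primed CMK9 the lowest primed library for ETV5, IL17RD and RGS16.

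ETV5, the other PEA3 factor, was lower already in naïve-like cells. In primed cells its level was 36.3 RPM in CMK6, 63.2 in TRSK, 10.5 in CMK9, 85.9 in iPS-L3, 44.2 in iPS-L6, 43.4 in iPS-S6 and 46.1 in iPS-S12. In naïve-like cells, in the same order, it was 29.1, 19.7, 13.0, 14.0, 6.65, 10.5 and 18.5 RPM. In differentiated cells it was 3.92, 0.546, 5.48, 7.44, 1.66, 3.19 and 12.9 RPM, which rest on 3 to 44 reads per library. Without primed CMK9, the primed and naïve-like libraries of ETV5 did not overlap, but with it they did. This omission was chosen after the values were seen, and the share of all genes that it separated was not counted. The naïve-like and differentiated ranges overlapped, as did the primed and differentiated ranges, the latter through primed CMK9 and differentiated iPS-S12.

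From primed to naïve-like cells ETV5 differed by -1.43 ± 1.08 (SD, n = 7 lines), a 2.69-fold lower level, and was lower in 6 lines and higher in CMK9 (0.28). From naïve-like to differentiated cells it differed by -1.68 ± 1.13, and from primed to differentiated cells by -3.11 ± 1.49, an 8.61-fold lower level. Both of these were in the lower direction in 7 of 7 lines. Genes lower in all 7 lines were 10.8% of those expressed for differentiated minus naïve-like and 6.88% for differentiated minus primed, and ETV1 and ETV5 were the members among them. The order of the medians was thus primed, naïve-like, differentiated (44.2, 14.0 and 3.92 RPM), and each step was larger than its SD over lines. The medians of ETV1 and ETV5, 2 close paralogues, thus had different orders across the media, with ETV1 highest in naïve-like cells (39.1, 61.2 and 8.32 RPM). In CMK9 both genes were highest in naïve-like cells. There the rise of ETV1 from primed cells was only 0.14, and it was 0.17 in iPS-L6 and 0.18 in iPS-S12.

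IL17RD, the membrane brake, was lower in ESC than in iPSC lines in primed cells. In primed cells it was at 44.9 RPM in CMK6, 69.7 in TRSK and 22.8 in CMK9, and at 90.0 in iPS-L3, 119.7 in iPS-L6, 125.9 in iPS-S6 and 113.4 in iPS-S12. In naïve-like cells it was at 73.1, 73.1 and 51.8 RPM in the same 3 ESC lines and at 58.9, 35.5, 40.9 and 36.8 RPM in the 4 iPSC lines. In primed cells each ESC line was thus below each iPSC line, and in naïve-like cells only CMK9 lay below the highest iPSC line. The share of all expressed genes with such a split by line type was not counted. In differentiated cells IL17RD was at 16.3, 19.3 and 37.1 RPM in ESC lines and at 25.5, 10.98, 15.9 and 63.7 RPM in iPSC lines, with no separation.

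Over all lines IL17RD differed by -0.52 ± 1.18 from primed to naïve-like cells (SD, n = 7 lines), which was within the spread of the lines. It was higher in naïve-like cells in all 3 ESC lines, by 0.07 to 1.15, and lower in all 4 iPSC lines, by -0.60 to -1.73. The share of all genes with such opposite directions was not counted. From naïve-like to differentiated cells IL17RD differed by -1.11 ± 0.98, lower in 6 lines and higher in iPS-S12. From primed to differentiated cells it differed by -1.62 ± 1.33, lower in 6 lines and higher in CMK9. Its medians were 90.0, 51.8 and 19.3 RPM in primed, naïve-like and differentiated cells. The mean difference between the first 2 media was smaller than its SD over lines.

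RGS16 had the widest range of the members and its lowest median in naïve-like cells. In primed cells it was at 84.6 RPM in CMK6, 107.0 in TRSK, 10.3 in CMK9, 170.5 in iPS-L3, 136.0 in iPS-L6, 133.3 in iPS-S6 and 279.5 in iPS-S12. In naïve-like cells, in the same order, it was at 8.31, 8.72, 24.2, 6.42, 4.43, 4.38 and 7.65 RPM. In differentiated cells it was at 28.1, 19.9, 92.6, 22.3, 17.6, 3.19 and 84.8 RPM. CMK9 ran against the other lines, being the lowest primed library and the highest in both other media. Without CMK9, each primed library was above each naïve-like one, but with it the ranges overlapped. Leaving out CMK9 was chosen after the values were seen, and the share of all genes separated in this way was not counted.

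The difference of RGS16 was -3.48 ± 2.15 from primed to naïve-like cells (SD, n = 7 lines), an 11.2-fold lower level, with 6 lines lower and CMK9 higher by 1.16. Without CMK9 it was -4.25. From naïve-like to differentiated cells it was 1.57 ± 1.09, with 6 lines higher and iPS-S6 lower by -0.36. From primed to differentiated cells it was -1.91 ± 2.47, within the spread of the lines, and CMK9 was higher by 3.05. So the order of the medians was primed, differentiated, naïve-like (133.3, 22.3 and 7.65 RPM), unlike that of ETV1 or ETV5.

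DUSP7 and FGFR3 varied more between lines than between media. DUSP7, the ERK phosphatase, ranged from 1.16 RPM (1 read, primed iPS-L6) to 25.7 RPM (primed iPS-S12), with medians of 7.89 RPM in primed, 15.2 RPM in naïve-like and 9.56 RPM in differentiated cells. It was higher in naïve-like than in primed cells in 6 lines and lower in iPS-S12, with a difference of 0.69 ± 1.16 (SD, n = 7 lines). The other 2 differences were -0.29 ± 0.95 (differentiated minus naïve-like) and 0.40 ± 1.21 (differentiated minus primed). None of the 3 exceeded its SD, which describes the spread of the lines and not the precision of the mean. No order of the levels of DUSP7 is given.

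FGFR3, the receptor, had medians of 17.4, 13.8 and 8.81 RPM in primed, naïve-like and differentiated cells and a range of 3.10 to 27.3 RPM over the 21 libraries. Its differences were -0.44 ± 1.10 for naïve-like minus primed, -0.20 ± 0.70 for differentiated minus naïve-like and -0.64 ± 0.81 for differentiated minus primed (SD, n = 7 lines). The last was lower in 6 lines and higher in iPS-S12, and all 3 were within the spread. FGFR3 was the only FGF receptor kinase gene among the genes analysed.

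FGF5 was at the limit of detection in every PSC medium. It had no read in 4 primed, 4 naïve-like and 5 differentiated libraries, and reached 3 reads in 1, 2 and 1 of them. The highest values were 2.35 RPM (8 reads, primed iPS-L3), 1.96 RPM (11 reads, naïve-like iPS-S12) and 2.92 RPM (10 reads, differentiated iPS-S12). No difference between media was detectable at this depth, and at 0 reads in a library 3 reads mark the limit, which covers counting error only.

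**Figure D2:**
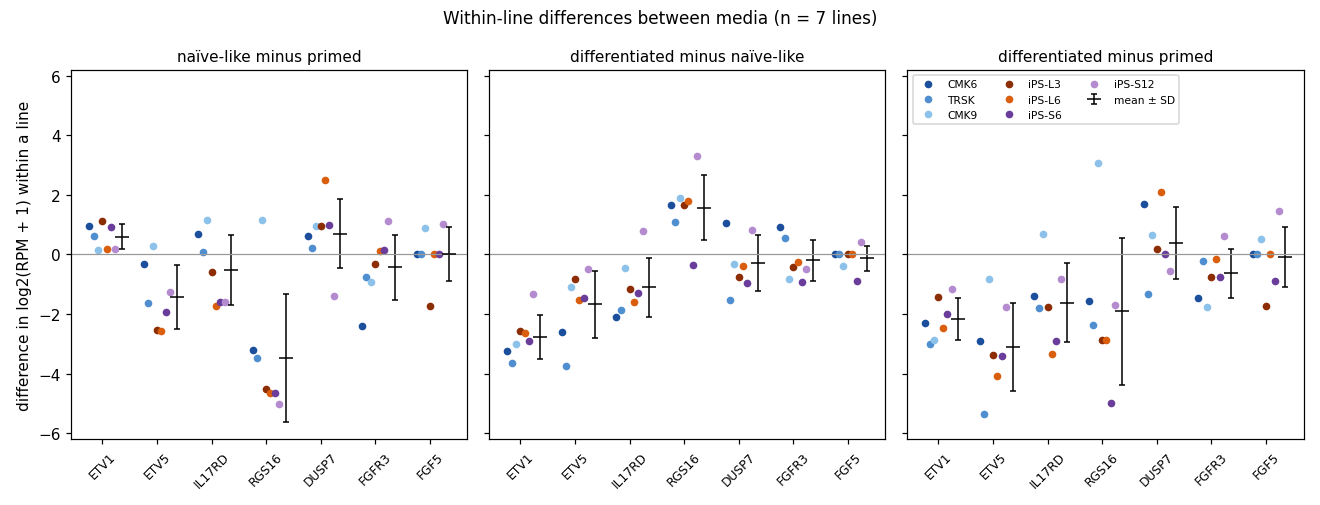
Difference of log2(RPM + 1) between media within each line, vertical axis, for the 7 genes, horizontal axis, in 3 panels for the 3 pairs of media. Coloured points are the 7 lines and the bar is their mean ± SD; all 7 points of ETV1 lie above 0 in the first panel and below 0 in the others, and those of IL17RD in the first panel lie above 0 for the ESC lines (blue) and below 0 for the iPSC lines.

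In the somatic libraries the genes came apart in another way. ETV5 was at 46.4 RPM in liver and 29.5 RPM in stomach cells, within the primed range, whereas ETV1 was at 5.87 and 20.4 RPM. IL17RD was at 54.0 RPM in liver and 13.9 RPM in stomach cells, and RGS16 was the reverse, at 4.70 and 87.9 RPM. FGF5 had 44 reads in stomach cells (14.3 RPM) and none in liver cells, so that its highest level of all 23 libraries was in stomach cells. FGFR3 was at 1.17 RPM in liver and 0.324 RPM in stomach cells, or 2 reads and 1 read, and DUSP7 at 6.46 and 12.6 RPM. With 1 library each, no spread is known for these values. In all these bulk libraries, fewer cells of a type and less RNA per cell cannot be told apart.

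The differences of ESC and iPSC lines are set side by side for the 6 expressed members, also as a description, since the members were chosen with these values known. The iPSC minus ESC value and its SE came from the interaction of medium and line type in limma, fitted over all 2776 genes. For naïve-like minus primed, this fit called 0 of the 6 members and 0% of all genes, so the calls do not tell the members from other genes. An unadjusted limma p under 0.05 was reached by 133 of the 2776 genes, and chance alone gives such a p at a rate of 0.05. IL17RD had a mean difference of 0.64 in ESC lines and -1.38 in iPSC lines, an iPSC minus ESC value of -2.02 (SE 0.60). RGS16 differed by -1.84 in ESC lines and -4.71 in iPSC lines (-2.87, SE 1.10). FGFR3 went the other way, with -1.37 in ESC lines and 0.26 in iPSC lines (1.63, SE 0.74). The value was 0.02 for ETV1 (SE 0.49), 0.15 for DUSP7 (SE 0.84) and -1.52 for ETV5 (SE 0.84).

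For differentiated minus naïve-like, limma also called 0 of 6 members and 0% of all genes, with 109 of all genes at an unadjusted p under 0.05. The largest iPSC minus ESC value of a member was 1.41, for ETV5 (SE 0.84), and that of ETV1 was 0.94 (SE 0.49). With 3 and 4 lines, the absence of calls does not show that the line types respond alike. Line type cannot be told apart from the shared donor of the iPSC lines. The male lines, CMK6 and TRSK, were both ESC lines.

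ETV5, IL17RD and RGS16 varied together over the libraries, while ETV1 did not follow them within a medium. Over the 21 PSC libraries Pearson's r was 0.87 for ETV5 with IL17RD, 0.54 for ETV5 with RGS16, 0.55 for IL17RD with RGS16 and 0.62 for ETV5 with ETV1. After removal of the mean of each medium it was 0.74, 0.62, 0.77 and 0.08 in the same order. FGFR3 ran against this trio, with -0.55 against IL17RD and -0.47 against ETV5 after that removal. These values share lines, libraries and depth and are given without p, and primed CMK9, low for all 3 genes of the trio, is one of the 21 points.

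**Figure D3:**
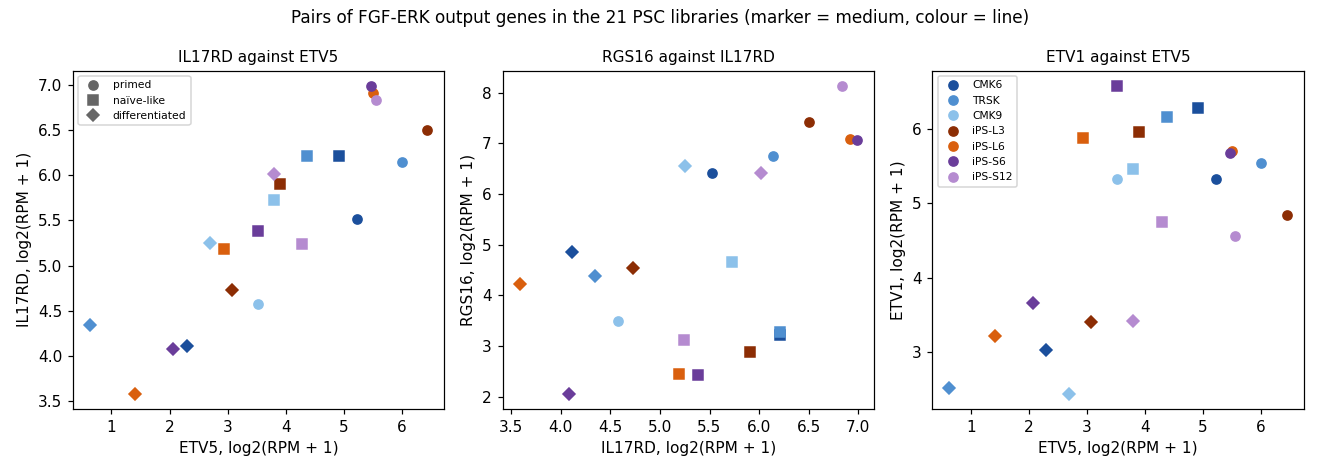
Log2(RPM + 1) of pairs of genes in the 21 PSC libraries: IL17RD against ETV5, RGS16 against IL17RD and ETV1 against ETV5. Circles are primed, squares naïve-like and diamonds differentiated libraries, and colours are lines; in the ETV1 panel the 7 differentiated libraries lie below all others on the ETV1 axis.

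Among all expressed genes, those with the most similar pattern over the 21 libraries were ranked by Pearson's r. For ETV5 they were ETV3 (r = 0.89), an ETS-domain repressor, IL17RD and BHLHE40 (0.85), a stress- and growth factor-responsive repressor. For IL17RD, after ETV5, they were ZYX (0.83), a focal adhesion protein, and EOMES (0.82), a T-box factor of the primitive streak. EOMES had medians of 9.82, 1.73 and 0 RPM in primed, naïve-like and differentiated cells. For RGS16 they were PPP1R18 (0.93), SERTAD4 (0.91) and PXDC1 (0.91).

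For ETV1 they were RCC2 (0.88), which acts in mitosis, CRIPTO (0.87), the NODAL co-receptor of pluripotent cells, and the potassium channel gene KCND2 (0.85). CRIPTO had medians of 33.2, 104.5 and 0.999 RPM in the 3 media, in the same order as ETV1. For FGFR3 they were CXADR (0.80) and TRIM71 (0.77), and for DUSP7 DCAF6 (0.77), GALNT2 (0.73) and IFNGR2 (0.70).

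Once the mean of each medium was removed, BHLHE40 was among the 3 closest genes of ETV5 (0.82), IL17RD (0.76) and RGS16 (0.84). RGS16 was also close to ETS2 (0.88) and ZYX (0.87), IL17RD to SKIL (0.77) and RGS16, and ETV5 to IL17RD and PTCD1 (0.69). ETV1 had no gene above 0.68 (HMGA1, ZNF281 at 0.66 and the unnamed locus LOC101866390 at 0.68). FGFR3 was closest to POLD2 (0.83), CXADR (0.82) and CD24 (0.80), and DUSP7 to IFNGR2 (0.77), LSAMP (0.77) and DCAF6 (0.75).

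In the rest of the FGF-ERK pathway, more genes were called lower than higher from primed to either other medium, and BRAF was not called in any comparison. The list of these genes was also chosen with earlier results of these data known. Its shares beside those of all genes are therefore given for scale only. A list of 215 pathway genes without the members held 51 that were analysed here and 36 above the threshold. The rest of the list had no row under their symbols among the 8415 genes analysed, so nothing is known here of their levels. Counts by role below cover only the genes above the threshold and not the whole pathway. For naïve-like minus primed, limma (Benjamini-Hochberg adjusted p under 0.05, 2776 genes tested) called 16 of the 36, or 44.4%, against 19.2% of all genes. Of the list 13 genes fell (36.1%, against 8.18% of all genes) and 3 rose, against 11.1% of all genes. The median difference of the list was -0.58, and that of all expressed genes was 0.06. With the libraries centred on their medians, the list kept 13 falls and 3 rises, while the calls over all genes turned from 307 higher and 227 lower to 218 higher and 261 lower. Without the primed iPS-S12 library, which had the lowest POU5F1 of its group, the count was 10, and it was 8 without the iPS-S12 line, 9 without iPS-S6 and 10 without iPS-L3 or iPS-L6.

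Among the other output genes, 6 of 11 fell and 2 rose from primed to naïve-like cells. VGF, a secreted neuropeptide precursor induced by growth factors, fell by 2.19 (SE 0.42, limma adjusted p = 0.0011) in 7 of 7 lines. EPHA2, an ephrin receptor, fell by 1.62 (SE 0.34, limma adjusted p = 0.0019), and CCN2, BHLHE40 and UPP1 fell by 1.79, 1.76 and 0.96. The calls of the last 3 held in 5, 6 and 7 of 15 alternatives, in that order. All 3 were lost with a pseudocount of 0.1, without the filter on low genes, and without iPS-L3, TRSK, iPS-L6, iPS-S6 or iPS-S12. ELF3, an epithelial ETS factor, rose by 2.43 (SE 0.67, limma adjusted p = 0.014) and POLR1C, an RNA polymerase subunit, by 0.52. The rise of ELF3 was not called without the CMK6 or iPS-S12 line, and the stricter filter leaves this gene out.

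Of the ERK-responsive transcription factors, 3 of 7 fell and none rose. ETS2, an ETS factor, fell by 1.87 (SE 0.38, limma adjusted p = 0.0016) from a median of 112 to 19.7 RPM in 6 of 7 lines. The immediate early gene IER5 fell by 1.05 (SE 0.20, limma adjusted p = 0.0011). ATF3, a stress-induced factor, was called at the edge of the threshold (-0.96, limma adjusted p = 0.04999), and this call was lost in 9 of 15 alternatives. MCL1 and SRF, the 2 most abundant of this group that were not called, differed by -0.46 and -0.62.

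Of the feedback genes and brakes, 2 of 7 fell. These were RASA2, which switches RAS off, by 1.03 (SE 0.24, limma adjusted p = 0.0052), and SPSB1 by 1.41 (SE 0.50, limma adjusted p = 0.049), which was called in 4 of 15 alternatives. ERRFI1, a brake on the EGF receptor, differed by -0.34 and was not called.

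Along the chain itself, SHC1, the adaptor that links receptors to RAS, fell by 0.85 (SE 0.18, limma adjusted p = 0.0026) in 7 of 7 lines, and NRAS (-0.05), MRAS (0.62) and RAP1A (0.10) were not called. BRAF, the target of SB590885, had medians of 20.8, 20.3 and 21.6 RPM in primed, naïve-like and differentiated cells and was not called. LAMTOR2, a scaffold that carries MEK to late endosomes, rose by 0.72 (SE 0.22, limma adjusted p = 0.025), a call lost without iPS-L6, CMK9, iPS-S6 or iPS-S12. PEA15 and RPS6KA1 were not called (-0.38 and 0.69), although RPS6KA1 was called with the line as a block (limma adjusted p = 0.033). FGF12, an intracellular member of the FGF family, was the only ligand gene analysed besides FGF5 and fell by 0.55 (SE 0.17, limma adjusted p = 0.026), a call lost without iPS-L3, iPS-S6 or iPS-S12. Of the receptor and co-receptor genes besides FGFR3, 21 were listed, 6 were analysed and only SDC3, a heparan sulfate proteoglycan, was above the threshold. It was not called (-0.14).

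**Figure D4:**
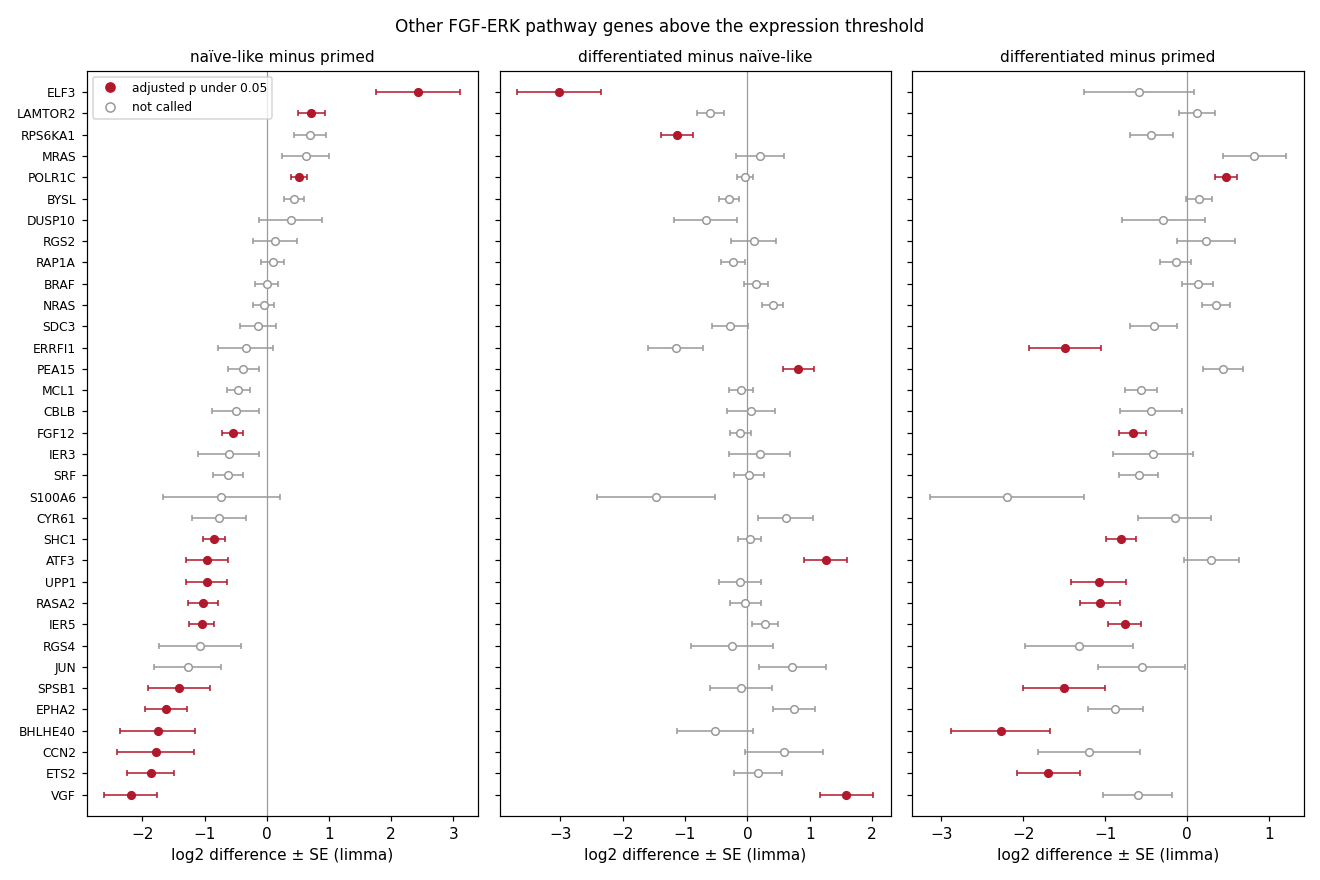
Log2 difference ± SE from limma, horizontal axis, for 34 other FGF-ERK pathway genes above the threshold, vertical axis, in 3 panels for the 3 pairs of media. Filled red points have an adjusted p under 0.05; 15 of these genes are filled for naïve-like minus primed, 5 for differentiated minus naïve-like and 10 for differentiated minus primed.

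From naïve-like to differentiated cells, few pathway genes changed. Limma called 5 of the 36, or 13.9%, against 14.1% of all genes, so the share was near that of all genes. VGF rose by 1.59 (SE 0.42, limma adjusted p = 0.014), ATF3 by 1.25 (SE 0.34, limma adjusted p = 0.015) and PEA15, which holds ERK in the cytoplasm, by 0.81 (SE 0.25, limma adjusted p = 0.029), each in 7 of 7 lines. In this direction 6.41% of all genes were called. ELF3 fell by 3.02 (SE 0.67, limma adjusted p = 0.0038) and RPS6KA1, the ERK substrate kinase RSK1, by 1.13 (SE 0.26, limma adjusted p = 0.0049), and 7.71% of all genes fell.

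The median of the list was 0.00 for this step, and that of all genes was -0.02. None of the 7 feedback genes, 4 adaptor and RAS genes or the ligand was called. The count was 2 without the CMK6 line, and ELF3 and RPS6KA1 were those kept. The calls of ATF3 and PEA15 were also lost without iPS-L6 and without iPS-L3 or TRSK, respectively. With the line as a block it was 8, with LAMTOR2 (limma adjusted p = 0.013), ERRFI1 (0.029) and NRAS (0.035) added. ETV1, by comparison, had the largest of its 3 differences in this step.

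From primed to differentiated cells, limma called 11 of the 36, or 30.6%, against 13.4% of all genes (372 genes, or 585 with the line as a block). Of these 10 fell (27.8%, against 7.13% of all genes) and POLR1C rose (0.48), in a direction in which 6.27% of all genes were called. BHLHE40 fell by 2.28 (SE 0.61, limma adjusted p = 0.013) and ETS2 by 1.69 (SE 0.38, limma adjusted p = 0.0039). RASA2, SPSB1 and ERRFI1, 3 of the 7 feedback genes, fell, with differences of -1.06, -1.505 and -1.49, and UPP1, SHC1, IER5 and FGF12 fell by 1.08, 0.81, 0.76 and 0.66. RASA2, SHC1 and ETS2 were called in all 15 alternatives, SPSB1 in 6, ERRFI1 and UPP1 in 10, BHLHE40 in 11, POLR1C in 12, IER5 in 13 and FGF12 in 14. The list's median was -0.56 and that of all genes 0.05. Without iPS-L6 or iPS-S6 the count was 5, and without iPS-L3 it was 7. This comparison shares its libraries with the other 2.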

How the data were processed

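SC3-seq (3′-end sequencing of cDNA amplified from 1 ng total RNA, 75 bp reads) covered 23 libraries. The values deposited by the authors are RPM, relative to all mapped reads, in 1 column per library. Per the labels' processing notes, cutadapt 1.3, TopHat 1.4.1 and Cufflinks 2.2.0 were used; the genome build's role was not given in the sources used here, so no coordinates are printed. Of 8416 rows, 1 was incomplete and left out. Gene IDs of 5564 genes matched the RefSeq table, which gave 980 symbols. In each library 88.1% to 93.2% of values up to 1000 reads were whole multiples of 1 step (within 0.01 reads), and the rest were fractions, so count tests were not used; this step gave the depth. All values of the 7 genes were whole reads.

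Media were compared with limma 3.58.1 (R 4.3.3) on log2(RPM + 1), with a mean-variance trend, all 3 media fitted together and a threshold of 0.05 on two-sided Benjamini-Hochberg adjusted p. Lines are replicates, named as in the labels; p-values measure the spread between lines, of which 4 share a donor. The media share the cell lines, which pairs the libraries, but the main fits and their SEs left the line out. It entered only in the alternative with the line as block. The residual correlation averaged 0.27 for the same line (lowest 0.03) and -0.05 for different lines. Tables and figures were made with Python 3.11.15, numpy 2.4.6, pandas 2.3.3 and matplotlib 3.10.9. The test was tried on simulated data.

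The 7 genes, pathway lists and marker lists were chosen with earlier results of these data known. The text names all 7 genes, every called pathway gene, the most abundant uncalled ones, the 3 genes most like each member and marker genes; other uncalled pathway genes were named after their values were seen. A few genes that this rule names are counted but not reported here. Alternatives were another pseudocount, no or a stricter filter, quantile normalization, library centring, no trend, the line as block, 2 media in the fit and each line left out. RT-qPCR data were not analysed here.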

Additional observations from a re-analysis of the deposited data

Results flagged for a closer look

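By Dixon's test on log2(RPM + 1), 10 of 78 groups of 7 libraries held a library far from the others, and chance flags about 1 in 20 groups (3.9 of 78). The values below are the gap to the nearest library over the range of the group. Primed CMK9 was the lowest library for ETV5 (0.582, 10.5 RPM against 36.3 in the next), RGS16 (0.631, 10.3 against 84.6 RPM), BHLHE40 (0.785, 1.25 against 26.5 RPM), CCN2 (0.5682, 29.9 against 243.9 RPM) and EPHA2 (0.678, 16.8 against 65.1 RPM). Primed CMK9 was the deepest library, with 7986000 reads. Naïve-like CMK9 was the highest for RGS16 (0.617, 24.2 against 8.72 RPM).

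Primed iPS-S12 was the lowest library for FGFR3 (0.611, 3.10 against 12.3 RPM), and differentiated iPS-S12 the highest for FGF5 (0.743, 2.92 against 0.422 RPM). Differentiated iPS-S6 was the lowest for ETS2 (0.582, 7.43 against 22.9 RPM) and naïve-like TRSK the highest for LAMTOR2 (0.582, 57.6 against 37.7 RPM).

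IL17RD moved in opposite directions in every ESC line and every iPSC line from primed to naïve-like cells, with an iPSC minus ESC difference of -2.018 on the log2(RPM + 1) scale. It is given as a description, since the gene was chosen with these values known. The interaction fit did not call IL17RD under any alternative run, and its main fit called 0 of all 2776 genes. How many of all genes moved in opposite directions in this way was not counted.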

How the results depend on the processing

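The replicate block (line) moved the count of called pathway genes from 16 to 18 for naïve-like minus primed, from 5 to 8 for differentiated minus naïve-like and from 11 to 13 for differentiated minus primed, and the calls over all genes from 534 to 724, 392 to 550 and 372 to 585. Beside the genes named in the report it added BYSL for naïve-like minus primed and MCL1 and S100A6 for differentiated minus primed, and it ended no pathway call. Leaving out 1 line at a time gave 300 to 522 called genes for naïve-like minus primed (lowest without iPS-L3), 220 to 346 for differentiated minus naïve-like (lowest without CMK6) and 240 to 391 for differentiated minus primed (lowest without iPS-S6). Over the same omissions the called pathway genes numbered 8 to 19, 2 to 6 and 5 to 14, with fewer samples in each fit. Chosen after seeing the data, leaving out the primed iPS-S12 library gave 10 for naïve-like minus primed, leaving out the naïve-like CMK6 library 12, and leaving out both 10. A pseudocount of 0.1, no filter, a stricter filter, quantile normalization, centring, no trend and 2 media in the fit left every count of called genes within 1.5 times its main value. Calls that held in all 15 alternatives other than the single-library omissions were 8 of 16, 1 of 5 and 4 of 11. The interaction of medium and line type called 0 members under every alternative run, but its main fit also called 0 of all 2776 genes. All 207 recomputed differences of the 7 genes moved by less than 1 SD over lines; 6 changed sign, all of FGF5, for which quantile normalization gave no value. Depth limits FGF5 in all media and ETV5 in differentiated cells.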
